A study of Mus musculus with 4 samples.

Results

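The genes described here encode 5 receptors and 5 Smad proteins of the bone morphogenetic protein (BMP) and transforming growth factor β (TGF-β) pathways. They were taken as a named set, and every deposited H3K27ac peak that touched a gene or the 10 kb on either side of it was counted. They are 10 of the 21887 nuclear protein-coding genes in the RefSeq table used. The mark, acetylation of lysine 27 of histone H3, lies on active promoters and enhancers and was profiled by chromatin immunoprecipitation and sequencing.

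The tested culture consisted of primary chondrocytes of C57Bl/6 mice, labelled hdac3-knockout and transduced with Cre-recombinase adenovirus. The control culture, of the same strain and cell type, was labelled wild-type and received a GFP control adenovirus. The labels place the Cre-transduced cells in ex vivo micromass culture, a dense spot of cells in which cartilage matrix forms, and name neither the Hdac3 allele nor the age of the mice. Adenovirus was thus added to both cultures, and the share of cells that lost Hdac3 is not measured by the peak lists. There was 1 library per culture, so each difference below is a difference between 2 libraries, with no replicate check and no test. The design asks how acetylation relates to genes that change when Hdac3, a histone deacetylase of corepressor complexes, is deleted.

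In these pathways a ligand brings together type II and type I receptors at the cell surface, and the type I receptor kinase phosphorylates receptor-regulated Smads. Those bind a common partner Smad, enter the nucleus and control transcription, while inhibitory Smads are induced by the pathway and restrain it. In cartilage, BMP signalling through Bmpr1a and Bmpr1b is needed for chondrocyte formation, and TGF-β signalling through Smad3 restrains chondrocyte hypertrophy.

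Peaks were called separately in each library, 13130 in the Cre and 12873 in the GFP list. Each list had a median pileup of 12, the pileup being the count of fragments over a peak's summit. The genome background gave an expected 1.01 fragments for Cre and 0.949 for GFP, and pileup ratios below are scaled by their quotient, 1.06. The lowest pileup in either list was 7 fragments. At the genome background few peaks had 7 (29 Cre and 39 GFP) and more had 8 (428 Cre and 528 GFP), so a site with about 7 fragments could also go unlisted. All 9 chondrocyte markers looked up, among them Col2a1, Acan and Sox9, had peaks in both cultures. The endothelium markers (0 of 4) and muscle markers (0 of 3) had none, and the other markers with peaks were Col3a1, Sp7, Cd14 and Cd68, the last in the GFP list alone. The chondrocyte markers themselves had 101 Cre peaks over 30553 bp and 121 GFP peaks over 40881 bp, and the part of this difference in the results below was not tested. In bulk chromatin, fewer acetylating cells and less acetylation per cell cannot be told apart. Hdac3 itself had no peak within 10 kb in either list, and an acetylation profile does not check the deletion.

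The receptor genes carried most of the peaks, which lay at a few places. Around the 10 genes there were 17 Cre peaks covering 3752 bp and 19 GFP peaks covering 4840 bp. The 5 receptor genes held 12 Cre and 15 GFP peaks (2816 and 4098 bp), and the 5 Smad genes held 5 Cre and 4 GFP peaks (936 and 742 bp). Receptor genes are longer, and per 100 kb of gene and flank they had 1.52 Cre and 1.90 GFP peaks, against 1.22 and 0.977 for the Smad genes. The Cre share of the peak number was 44.4% (exact Clopper-Pearson 95% interval 25.5 to 64.7) for receptors and 55.6% (21.2 to 86.3) for Smads. By place, receptors had 1 Cre and 3 GFP peaks at a gene end and 11 and 11 inside a gene, and Smads had 0 and 1 at a gene end and 4 and 3 inside. Within the receptors, the type I genes Bmpr1a, Bmpr1b and Tgfbr1 had 6 Cre and 9 GFP peaks and the type II genes Bmpr2 and Tgfbr2 had 6 and 6. Tgfbr2 supplied 6 of the 12 Cre peaks, and without it the receptors had 6 Cre and 11 GFP peaks. Smad6 supplied all 5 Cre peaks and 3 of the 4 GFP peaks of the Smads. Both intervals of the Cre share took in an even split between the libraries, and they overlapped each other. A difference between receptors and Smads in their balance was not tested, and each share rests on a few genes. Intervals here cover counting error only, since fragments of an amplified library are not independent molecules. Those of the Cre share also take each peak as independent, although peaks were clustered: 5 Cre peaks lay in a 2871 bp stretch of Tgfbr2. With peaks within 500 bp merged, receptors had 8 Cre and 14 GFP peaks and Smads had 4 and 4.

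**Figure D1:**
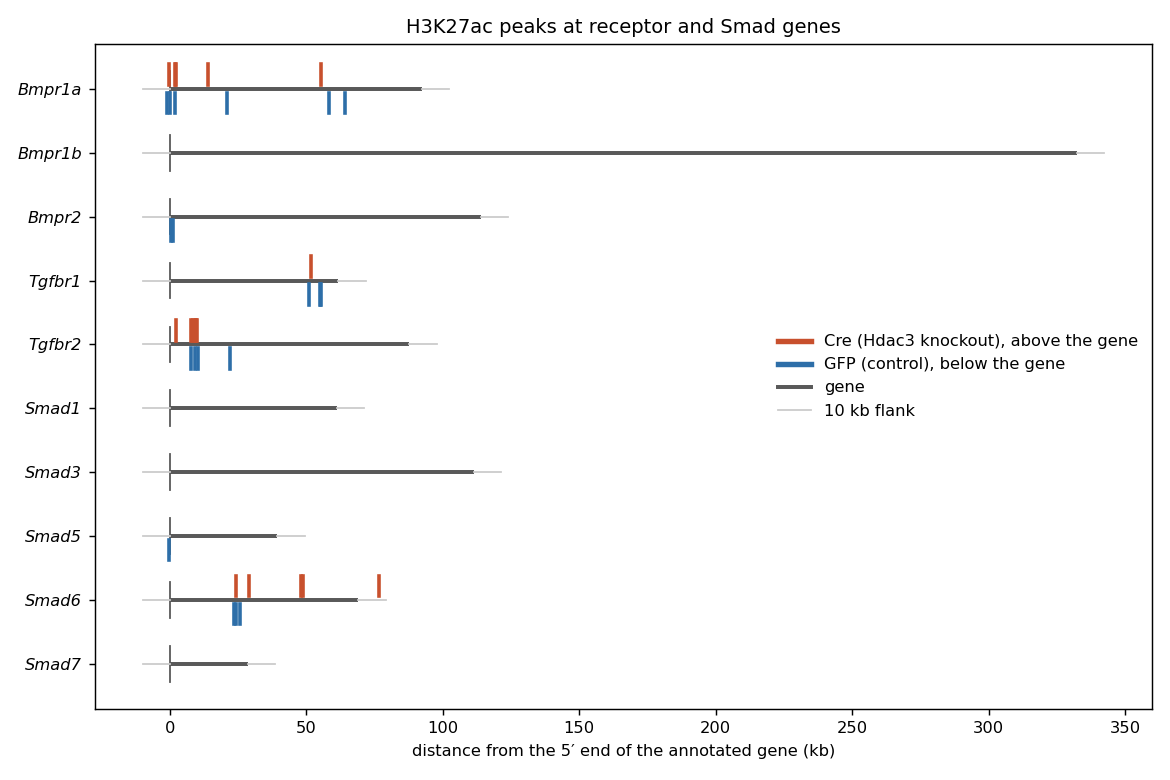
Positions of the H3K27ac peaks around the 10 genes, drawn in the direction of transcription from the 5′ end of each annotated gene (distance in kb; Smad7, for which no strand was used, runs from its lower end). Cre peaks stand above each gene and GFP peaks below it; Bmpr1b, Smad1, Smad3 and Smad7 have none.

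A peak was present in the Cre list at 4 of the 10 genes and in the GFP list at 6, against 26% of all protein-coding genes in each list. The 4 genes with peaks in both lists (19.7% of all genes) were Bmpr1a, Tgfbr1, Tgfbr2 and Smad6. The 2 with GFP peaks alone (6.38%) were Bmpr2 and Smad5, and 0 had Cre peaks alone (6.31%). Cover was greater on the Cre side for 2 members, Tgfbr2 and Smad6 (15.9% of all genes), and on the GFP side for 4 (16.5%). In either list 6 of the 10 had a peak, against 32.4% of all genes and 39.0% of the 6711 genes of 25 to 120 kb, the length class that holds 9 of the 10. The median gene of the set had 0 bp of Cre and 263.5 bp of GFP cover, and the median of all genes was 0 bp in each list. Of the 17 Cre peaks, 15 lay inside a gene, more than 1 kb from its ends, as did 14 of the 19 GFP peaks. These shares were 88.2% (63.6 to 98.5) and 73.7% (48.8 to 90.9), beside 52.8% of all Cre and 54.0% of all GFP peaks. The measures are not alike: member peaks were placed by the ends of their own gene, all peaks by those of any protein-coding gene. Windows built around genes also take in little intergenic sequence by their construction.

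Peaks at a gene end were few and sat at promoters. With a summit within 1 kb of an annotated gene end counted as a boundary peak, 1 member had one in the Cre list and 3 had one in the GFP list, where 12.9% and 13.4% of all genes did. Bmpr1a had one in both lists, a state shared by 8.66% of all genes. Bmpr2 and Smad5 had one in the GFP list alone (4.77% of all genes), none of the 10 had a Cre boundary peak without a GFP one (4.24%), and 7 had none at all (82.3%). Counts this small do not separate the set from the background. RefSeq start sites were matched for 9 members, all but Smad7, and a peak within 1 kb of a start site was again found at Bmpr1a in both lists, as at 9.58% of 17492 matched genes. At Bmpr2 and Smad5 it was found for GFP alone (5.05%), and at 0 members for Cre alone (4.41%).

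The 250 bases before the start sites of these 3 genes are shown with those before a start of Bmpr1b, a receptor gene without any peak. This sets CpG-rich starts beside a CpG-poor one. Every matched Bmpr1b start lies inside the annotated gene, so the sequence at its annotated 5′ end, 142169585, was not read. Sequences are from RefSeq (GRCm38.p6, which shares its chromosome coordinates with mm10), 5′ to 3′ on the gene's own strand, with every CG in capitals.
Bmpr1a, chr14:34502547-34502796, minus strand: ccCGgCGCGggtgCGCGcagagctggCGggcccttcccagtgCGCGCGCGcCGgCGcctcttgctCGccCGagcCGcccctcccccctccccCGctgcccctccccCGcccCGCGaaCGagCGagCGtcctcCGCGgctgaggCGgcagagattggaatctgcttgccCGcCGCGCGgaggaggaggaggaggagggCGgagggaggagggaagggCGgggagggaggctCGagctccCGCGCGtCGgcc
Bmpr2, chr1:59764029-59764278, plus strand: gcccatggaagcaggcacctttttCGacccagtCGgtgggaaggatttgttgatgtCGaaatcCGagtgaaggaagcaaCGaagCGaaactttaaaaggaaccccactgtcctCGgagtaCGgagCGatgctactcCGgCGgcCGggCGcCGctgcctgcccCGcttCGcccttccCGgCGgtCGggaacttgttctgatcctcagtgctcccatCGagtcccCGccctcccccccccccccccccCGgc
Smad5, chr13:56702760-56703009, plus strand: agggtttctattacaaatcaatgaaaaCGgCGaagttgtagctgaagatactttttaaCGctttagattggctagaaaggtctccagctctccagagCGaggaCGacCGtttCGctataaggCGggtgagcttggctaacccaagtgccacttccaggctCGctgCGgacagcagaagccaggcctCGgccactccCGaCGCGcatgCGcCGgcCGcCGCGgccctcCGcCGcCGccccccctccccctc
Bmpr1b, chr3:141982265-141982514, minus strand: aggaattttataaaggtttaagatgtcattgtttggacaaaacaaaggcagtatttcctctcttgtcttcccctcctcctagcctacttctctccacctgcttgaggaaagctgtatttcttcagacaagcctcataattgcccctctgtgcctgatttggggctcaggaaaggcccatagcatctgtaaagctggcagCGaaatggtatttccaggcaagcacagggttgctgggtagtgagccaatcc

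Bmpr1a had 36 CG dinucleotides in this window, Bmpr2 and Smad5 had 22 each, and the Bmpr1b window had 1 (its other start sites had 5 each). The median over 21263 promoter windows of protein-coding genes was 10. The start sites of the genes without a boundary peak were not all of the Bmpr1b kind: Tgfbr1 had 29 at its upstream start, Smad6 27, Smad1 25, Smad3 22 and Tgfbr2 12. Among 4538 genes with 20 or more CG in this window, 34.0% (32.6 to 35.4) had a start-site peak in either list, against 22.6% (21.7 to 23.6) of 7338 genes with 5 to 19 and 2.30% (1.92 to 2.72) of 5616 genes with 4 or fewer. Of the members, 3 of the 7 in the first class had such a peak, and neither of the 2 in the middle class, Bmpr1b and Tgfbr2, did. Each gene was put in a single class, and Bmpr1b was placed by a window with 5 CG, not by the printed window with 1. The motif GGCGCC, a GC-rich element that BMP-regulated Smads can bind, occurred once each before the Bmpr1a, Bmpr2 and upstream Tgfbr1 starts and before the second Smad5 start (56703052), and in 12.3% of all windows. The palindrome GTCTAGAC, bound by Smad3, occurred in no member window and in 0.183% of all windows; both motifs read the same on either strand, and a match is only a match of letters.

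Among the receptors, Bmpr1a, a type I BMP receptor gene (gene ID 12166, chr14:34411061-34503336, minus strand), had the longest peak cover of the set, with 5 Cre peaks over 1406 bp and 6 GFP peaks over 2116 bp. Its peaks near the matched start, 34502546, stood on either side of it, leaving the CpG-rich window printed above without a peak. Those downstream of the start were counted as inside the gene. The annotated 5′ end of the gene, 34503336, lies further upstream. The Cre and GFP peaks upstream of the matched start both cover that end, with summits 133 and 37 bp from it. Upstream, the Cre peak chr14:34503330-34503959 (630 bp, pileup 15) overlapped the GFP peak chr14:34503238-34503842 (605 bp, pileup 13), with summits at -923 and -827 bp relative to the start. Downstream, Cre peaks of 147 and 169 bp, each with a pileup of 14, both overlapped a single GFP peak, chr14:34501067-34501854 (788 bp, pileup 14). The GFP list had 1 more peak, further upstream, of 172 bp and 15 fragments, whose edge was 403 bp from the nearest Cre peak.

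Both flanks of the matched Bmpr1a start were called in both cultures, and every ratio interval there took in 1. The Cre over GFP ratio of pileups, scaled by the background ratio, was 1.09 upstream (exact 95% interval 0.482 to 2.48) and 0.941 (0.416 to 2.13) for each downstream pair. Deeper in the gene no Cre peak overlapped a GFP peak. Cre peaks of 147 and 313 bp lay 54428 and 12990 bp into the gene with 10 and 9 fragments, and GFP peaks of 153, 181 and 217 bp lay 63222, 57602 and 20295 bp into it with 8, 14 and 10 fragments.

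Bmpr2, the type II BMP receptor gene (gene ID 12168, chr1:59764279-59878081, plus strand), had no Cre peak and 2 GFP peaks. The GFP peaks lay just after the start, at chr1:59764397-59764543 (147 bp, pileup 8) and chr1:59765157-59765392 (236 bp, pileup 13), with summits 159 and 997 bp past it. Their exact Poisson intervals were 3.45 to 15.8 and 6.92 to 22.2 fragments, beside a lowest listed pileup of 7. The first was thus near the lower end of the list and the second above the list's median pileup of 12. By fold the second, at 5.96, was below the list's median of 6.16, at percentile 44.6. The nearest Cre peak lay 78853 bp outside the gene, so the calls at Bmpr2 were on the GFP side alone.

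Tgfbr1, the type I TGF-β receptor gene (gene ID 21812, chr4:47353222-47414926, plus strand), was marked towards the 3′ end of the gene and not at its starts. The Cre list had 1 peak, chr4:47404850-47404996 (147 bp, pileup 12). The GFP list had 3, at chr4:47404060-47404272 (213 bp, pileup 10), chr4:47408219-47408487 (269 bp, pileup 13) and chr4:47408547-47408690 (144 bp, pileup 8). No Cre and GFP peaks overlapped here, but the Cre peak was 578 bp from the first GFP peak. The summits lay 17981 to 22377 bp past the second annotated start, at 47386216.

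Tgfbr2, the type II receptor gene that binds TGF-β (gene ID 21813, chr9:116087695-116175363, minus strand), carried a compact cluster that was called in both cultures. Between chr9:116164900 and chr9:116167770, a span of 2871 bp lying 7646 to 10416 bp downstream of the start by summit, there were 5 Cre peaks covering 1065 bp and 3 GFP peaks covering 788 bp. Pileups in the cluster were 14, 11, 10, 14 and 9 for Cre and 12, 13 and 9 for GFP, in order along the chromosome. The ranges overlapped, and the 3 overlapping pairs had scaled Cre over GFP ratios of 0.797, 0.724 and 0.941, each with an interval that took in 1. Outside the cluster the Cre list had a peak of 198 bp (pileup 10) with its summit 2085 bp past the start, and the GFP list had a peak of 185 bp (pileup 13) 21995 bp past it. Over the gene as a whole, 6 Cre peaks covered 1263 bp and 4 GFP peaks covered 973 bp.

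Bmpr1b, the other type I BMP receptor gene (gene ID 12167, chr3:141837135-142169585, minus strand), had no peak in either list although it is the longest gene of the set. The nearest Cre peak lay 184903 bp from the gene and the nearest GFP peak 147089 bp from it.

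**Figure D2:**
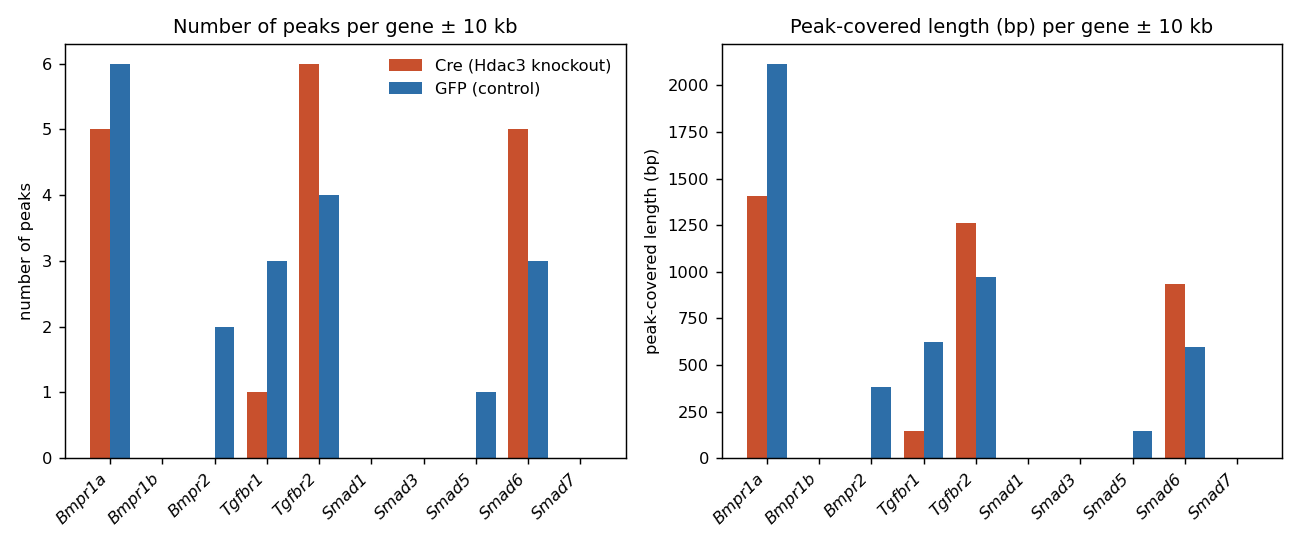
Number of peaks (left) and peak-covered length in bp (right) within each gene and its 10 kb flanks, by library. Bmpr1a and Tgfbr1 have more cover in the GFP library, Tgfbr2 and Smad6 in the Cre library, and Bmpr2 and Smad5 have GFP peaks alone.

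Among the Smad genes, acetylation was concentrated on Smad6, the inhibitory Smad that acts mainly on BMP signalling (gene ID 17130, chr9:63953076-64022085, minus strand). It had 5 Cre peaks over 936 bp and 3 GFP peaks over 598 bp, all of them far from its start site. The cultures shared 1 place within the gene. The Cre peak chr9:63997993-63998196 (204 bp, pileup 17) overlapped the GFP peak chr9:63997825-63998010 (186 bp, pileup 9) by 18 bp, with summits 23975 and 24223 bp downstream of the start. This Cre peak had the highest pileup of all member peaks, and its fold of 8.96, a value the authors deposited and used here only within its list, was at percentile 93.7 of its own list. The scaled ratio of the pair was 1.78 (0.750 to 4.53), so counting error alone takes in equal heights.

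The other Smad6 peaks differed in place between the cultures. GFP peaks of 255 bp (pileup 9) and 157 bp (pileup 8) had summits 23289 and 25486 bp from the start, on either side of the shared place. Cre peaks of 272, 147 and 162 bp, each with a pileup of 8, lay deeper in the gene, 48554, 47980 and 29086 bp from the start. A Cre peak of 151 bp (chr9:63945549-63945699, pileup 14) lay 7377 bp beyond the 3′ end. It was the last peak inside the 10 kb limit: Cre peaks 10134 and 10573 bp beyond the gene (pileups 10 and 11) and GFP peaks 10667 and 11555 bp beyond it (pileups 16 and 12) fell just outside and were not counted.

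Smad5, which carries BMP signals (gene ID 17129, chr13:56703010-56742378, plus strand), had no Cre peak and 1 GFP peak. That peak, chr13:56702412-56702555 (144 bp, pileup 11), had its summit 481 bp before the first start site and ended 205 bp short of the sequence window printed above. The nearest Cre peak lay 20567 bp from the gene. The Poisson interval of the GFP pileup, 5.49 to 19.7 fragments, ran below the listing limit, so counting error alone could take such a site below the limit.

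Smad1, the close relative of Smad5 in the BMP branch (gene ID 17125, chr8:79338395-79399428), Smad3, which carries TGF-β and activin signals (gene ID 17127, chr9:63646766-63757994), and Smad7, the inhibitory Smad of both branches (gene ID 17131, chr18:75367365-75395935), had no peak in either list. The nearest peaks to Smad1 were 128924 bp away in the Cre list and 43751 bp away in the GFP list. For Smad3 these distances were 67323 and 131928 bp, and for Smad7 286907 and 287005 bp. Acetylation at these genes was not detectable at this depth, which does not show that it was absent.

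**Figure D3:**
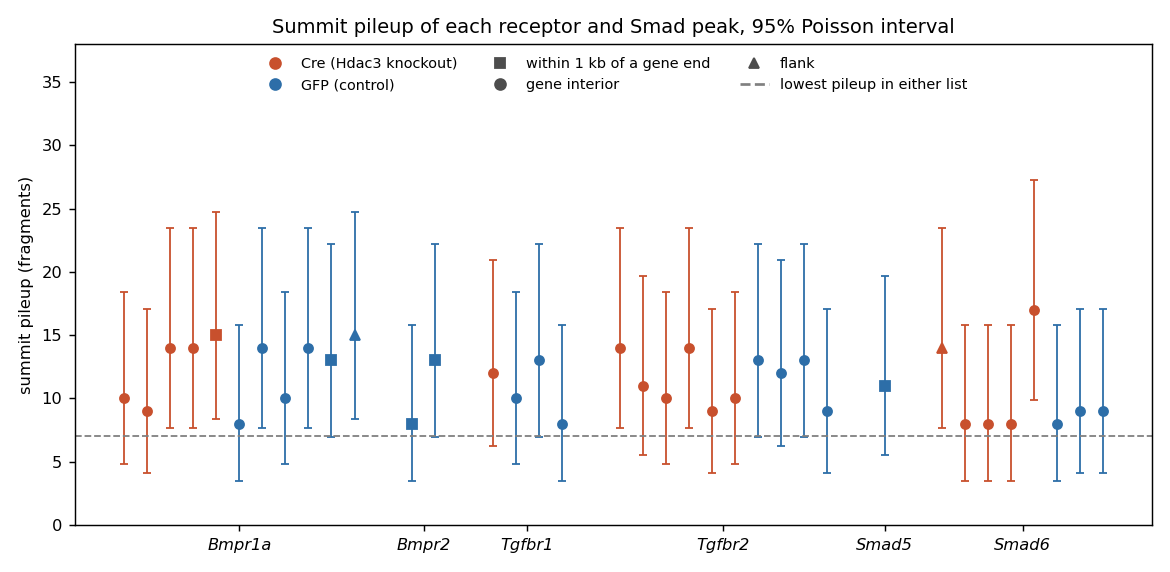
Summit pileup in fragments of each of the 36 member peaks, with exact 95% Poisson intervals for counting error; Cre peaks stand left of GFP peaks within each gene, ordered along the chromosome. Cre pileups run from 8 to 17 and GFP pileups from 8 to 15, and the dashed line is the lowest pileup in either list, 7.

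By median, the member peaks were below the middle of their lists in height. Pileups had a median of 11 fragments in each library, as plotted above, beside 12 over each whole list. The median fold was 5.48 for Cre and 5.42 for GFP, beside 5.98 and 6.16 over the whole lists. Those member folds were at percentile 40.8 of the Cre list and 27.3 of the GFP list, counting folds at or below the value. Cre folds were crowded there: a fold of 5.46 was at percentile 28.8. Medians over receptor peaks were 11.5 fragments for Cre and 13 for GFP, and over Smad peaks 8 for Cre and 9 for GFP. Of the Cre peaks, 7 of 17 (41.2%, 18.4 to 67.1) overlapped a GFP peak by at least 1 bp, beside 40.7% of the whole Cre list. Of the GFP peaks, 5 of 19 (26.3%, 9.15 to 51.2) overlapped a Cre peak, beside 41.4% of the whole GFP list. Both intervals took in the values of the whole lists. A peak of the other list lay within 1 kb of 10 Cre peaks (58.8%, against 64.8% of the whole list) and of 9 GFP peaks (47.4%, against 67.4%).

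When peaks of both lists were joined within 1 kb, the set had 19 sites, of which 5 held peaks of both cultures, 6 of the Cre culture alone and 8 of the GFP culture alone. The sites of both cultures were the upstream and downstream flanks of the matched Bmpr1a start, the place in Tgfbr1, the Tgfbr2 cluster and the shared place in Smad6. Receptors had 4 such sites of 13, and Smads 1 of 6. The share of such sites over the whole lists is not given here. These counts are thus not read as a trait of the set or of either group. All 7 overlapping pairs had ratio intervals that took in 1, with ratios from 0.724 to 1.78. The pairs drew on 7 Cre and 5 GFP peaks, and a pair needs a call in both lists. At these pileups the intervals are wide, so they do not show equal heights.

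**Figure D4:**
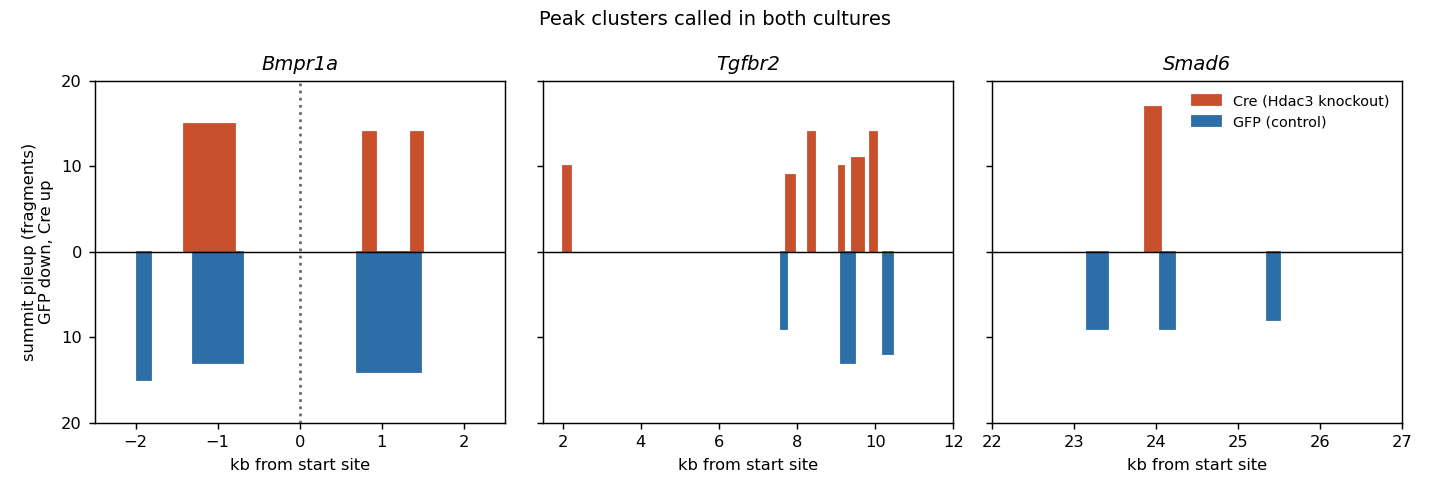
Peaks around the Bmpr1a start site, downstream of the Tgfbr2 start and inside Smad6, with distance from the start site in kb in the direction of transcription. Each box spans a peak and is as high as its summit pileup in fragments, Cre upwards and GFP downwards. At Bmpr1a both cultures leave the matched start (dotted line) without a peak, while a peak of each covers the annotated 5′ end further upstream.

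The rest of the pathway was counted in 6 lists of other genes, 67 in all, of which 28 (41.8%) had a peak in either library, against 32.4% of all genes. The Cre cover exceeded the GFP cover at 16 of them (23.9%) and fell short of it at 12 (17.9%), beside 15.9% and 16.5% of all genes. Of the 67, 7 (10.4%) had a boundary peak in both lists, against 8.66% of all genes. A further 5 (7.46%) had one for Cre alone, against 4.24%, and 3 (4.48%) for GFP alone, against 4.77%. The median cover was 0 bp in both libraries, as over all genes.

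The other receptor and coreceptor genes had 26 Cre peaks (5430 bp) and 4 GFP peaks (738 bp), nearly all at a pair of genes, and 3 of the 10 genes had any. Tgfbr3, encoding the TGF-β coreceptor betaglycan (chr5:107106567-107289629), had 13 Cre peaks over 2937 bp and 2 GFP peaks over 448 bp, and both GFP peaks overlapped Cre peaks. Acvr1b, a type I activin receptor gene (chr15:101174072-101213684), had 11 Cre peaks over 2115 bp, with pileups of 9 to 17, and 2 GFP peaks over 290 bp, with pileups of 13 and 10. By the 1 kb limit its boundary peak was called for Cre alone, with a pileup of 11 and its summit 733 bp from the gene end. A GFP peak of pileup 13 lay 205 bp from it, with its summit 1129 bp from the gene end, so that state rests on the limit. The window also takes in A330009N23Rik and AU021063. Acvr1 had 2 Cre peaks and no GFP peak. The other 7, among them Acvr2a, Acvr2b and Eng, had none.

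Ligand genes had 9 Cre and 14 GFP peaks (2681 and 3135 bp) at 4 of 14 genes. Tgfb2 had 2 Cre and 6 GFP peaks (405 and 1791 bp). Bmp5 had 4 Cre and 2 GFP peaks, with a boundary summit in the GFP list alone, and Tgfb3 had boundary peaks in both. Antagonists and binding proteins had 7 Cre and 4 GFP peaks at 3 of 14 genes. At Twsg1, a BMP-binding protein gene, a boundary peak was called for GFP alone, at Ltbp3, whose product binds latent TGF-β, for Cre alone, and Ltbp2 had 1 Cre peak.

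Intracellular regulators had 28 Cre and 21 GFP peaks (5258 and 5007 bp) at 9 of 13 genes. Ski, a corepressor that binds Smads, had 10 Cre and 2 GFP peaks (1734 and 444 bp), and Nedd4l, a ubiquitin ligase of Smads, had 7 and 8 (1195 and 2007 bp). Smurf2, another such ligase, and Map3k7, the TGF-β-activated kinase, had boundary peaks for Cre alone. Response genes had 35 Cre and 27 GFP peaks (7401 and 7933 bp) at 8 of 13 genes. Id1, Id2 and Id3, direct BMP targets, had boundary peaks in both libraries; Id3 had 8 Cre and 9 GFP peaks (1926 and 2556 bp) and Id1 had 5 and 4 (1412 and 1612 bp). At Ccn2 the boundary peak was called for Cre alone and at Runx2 for GFP alone. Of the 3 other Smads, Smad4, the common partner, had 1 Cre peak of 237 bp, and Smad2 and Smad9 had none.

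**Figure D5:**
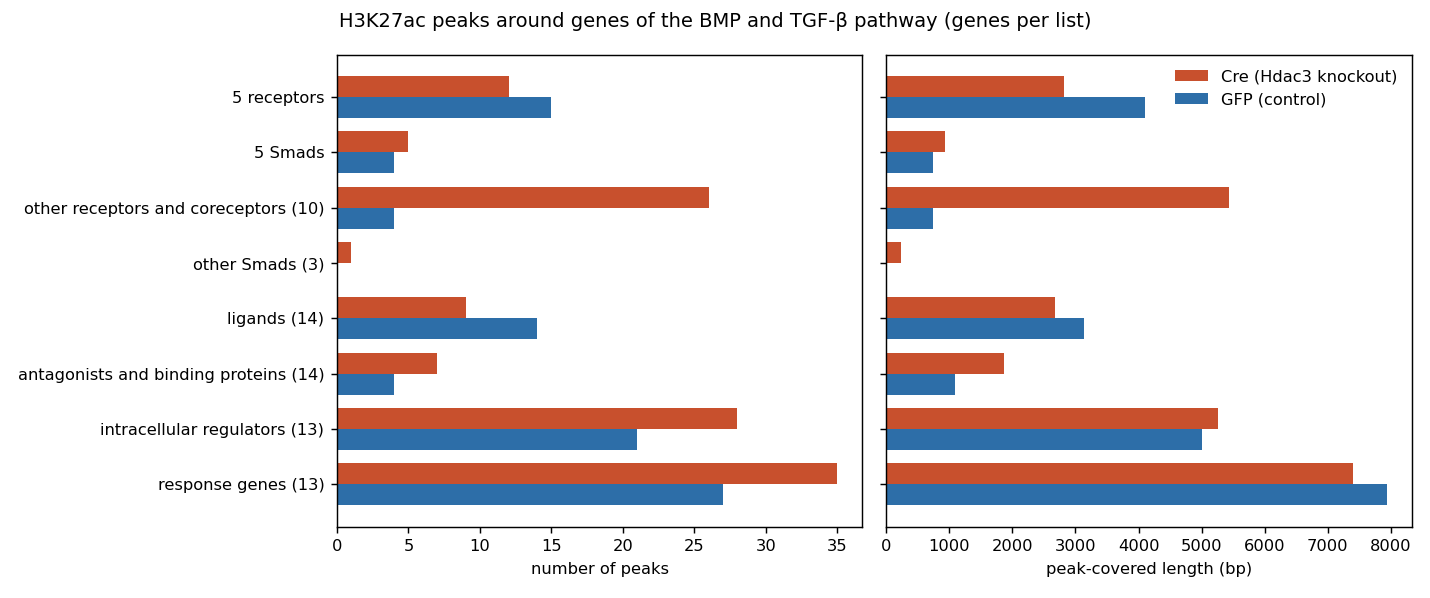
Number of peaks (left) and peak-covered length in bp (right) around the receptor and Smad genes and 6 further pathway lists, by library, with the number of genes in brackets. The other receptors and coreceptors have 26 Cre and 4 GFP peaks, and the response genes have the most peaks in each library, 35 and 27.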

How the data were processed

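Each H3K27ac library had 1 peak list, in which the authors deposited a position, a score, a fold enrichment (ratio), a −log10 p-value, a −log10 q-value and a summit per peak. The score equalled the integer part of 10 times the deposited −log10 q-value in every row. Per the submitters' processing notes, bcl2fastq 1.8.4, BWA, Picard, SICER and mm10 were used; the lists have the name and columns of MACS2 output, and no source used here gives the settings or control. The 2 input libraries were not analysed here. Total read numbers are unknown.

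Fold and −log10 p-value were solved together for the summit pileup and expected pileup (Poisson upper tail); 100% of peaks gave whole numbers within 0.001, and the solver recovered simulated pileups. Positions are 1-based. Genes came from a RefSeq table of GRCm38.p6 and start sites from its promoter table. A boundary peak has its summit within 1 kb of a gene end. Intervals are exact (Clopper-Pearson or Poisson, 95%). The members and lists were chosen with earlier results of these data known; named pathway genes were those with a boundary peak in 1 list alone and the 2 of greatest cover per list, and Acvr1, Acvr2a, Acvr2b, Eng, Smad2, Smad9, Tgfb3, Tgif1, Id2 and the markers with peaks were added after their values were seen. Python 3.11.15, scipy 1.17.1 and pandas 2.3.3 were used.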

Additional observations from a re-analysis of the deposited data

How the results depend on the processing

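Of the values recomputed under other settings, 51 stayed within their counting error or within 1.5 times the count and 9 moved. The Cre share of Smad peaks and of their covered length was 100% under a q-value cutoff (−log10 of 5 or more; 2 Cre peaks, 0 GFP peaks) and again among the top 5000 peaks (1 and 0), against 55.6% and 55.8% with all peaks. Members with a boundary peak in the GFP list alone numbered 1 (Bmpr2) under that cutoff and 0 among the top 5000 peaks, and with a boundary window of 2.5 kb Tgfbr2 became 1 member in the Cre list alone. Requiring 50% overlap of both peaks left 5.88% of Cre and 5.26% of GFP member peaks shared, the single pair upstream of the Bmpr1a start. The share of the whole lists under this rule is not given here, so the drop is not read as a trait of the set. The Cre share of covered length over all members was 43.7%, ranged from 35.3% to 43.6% under 4 alternatives, and was 51.4% when peaks within 500 bp were merged, which counts the gaps between Cre peaks as cover. Counting any overlap of a peak with the boundary window, an alternative chosen after seeing the data, left the 3 member calls as they were. Among the other genes counted it placed Bmp5, Tgif1, Col2a1 and Comp in both lists and Smad4 in the Cre list alone. No paired analysis was possible because each culture had 1 library. Depth limits all of this: summits of 8 to 17 fragments have wide counting intervals, no site with fewer than 7 fragments is listed, and few with 7 are.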

Other observations

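The interval between Smad3 and Smad6 on chromosome 9 (63757995 to 63953075, 195081 bp) held 5 Cre peaks covering 964 bp and 5 GFP peaks covering 1080 bp, although Smad3 itself had none. Near its Smad6 end, within the lncRNA gene Gm36033, Cre peaks with pileups of 11 and 10 stood beside GFP peaks with pileups of 16 and 12, and 1 pair of them overlapped. Further from Smad6 the cultures had different peaks: Cre peaks 67323 and 68871 bp beyond Smad3 had pileups of 16 and 9, and GFP peaks 131928 to 138751 bp beyond it had pileups of 12, 10 and 10.

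In Acvr1b, the Cre peaks formed 2 groups, 6 peaks between 101174769 and 101177439 at the lower end of the gene and 5 between 101181259 and 101183770, on chromosome 15. Both GFP peaks lay in the first group, and the second group had no GFP peak. In Ski, 2 of the 10 Cre peaks lay in the lower flank, in a window that also takes in Morn1, and 1 of the 2 GFP peaks overlapped a Cre peak. These genes were singled out after their values were seen, and whether the difference between the 2 libraries exceeds that between cultures of 1 kind was not tested.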
